A study of Mus musculus with 9 samples.

Results

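The regions described here are 750 distal sites at which the PBRM1 signal exceeded the BRG1 signal in primary mouse oviductal smooth muscle cells. They were chosen by measured values. Peaks of 6 lists, 3 for PBRM1 and 3 for BRG1, were merged into 83005 regions wherever they shared a base. Of these, 12842 held a peak in all 6 lists, 12655 of them on chromosomes 1 to 19. A region was called distal when its midpoint lay more than 2 kb from every annotated transcript start, which left 4460 distal regions. For each of them the highest pileup (the number of fragments stacked at a summit) in the pooled PBRM1 list and in the pooled BRG1 list was divided by the depth of that list, giving pileup per 1000000 fragments (FPM). The 750 members, 16.8% of the distal regions, had a BRG1/PBRM1 ratio of these values below 1, and the other 3710 distal regions had a ratio of 1 or more. Every distal region had a pooled peak of both antibodies.

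The libraries came from wild-type (WT) mice of 8 to 12 weeks on day 2 of pregnancy, and no deletion, transgene or drug is named for them. The assay was chromatin immunocleavage sequencing (ChIC-Seq), in which micrococcal nuclease is brought to a protein by its antibody and the DNA it cuts free is read. The targets were PBRM1 and BRG1, with 3 replicates each, and 3 further IgG samples in the labels were not analysed here. The oviduct was digested, filtered and plated for some hours before collection, so the muscle cells were enriched by handling and not sorted. Nothing in the labels says whether replicates came from separate animals or cultures. Pooled depth was 61910852 fragments for PBRM1 and 45216486 for BRG1, with 14284532 to 23992352 fragments per library. Of 6 smooth muscle marker genes, 5 (*Acta2*, *Myh11*, *Tagln*, *Des* and *Myocd*) had a peak of both pooled lists within 2 kb of a start, against 4 of 7 epithelial (*Krt8*, *Krt18*, *Pax8* and *Foxj1*), 1 of 3 endothelial (*Pecam1*) and 0 of 3 leukocyte genes, and only *Acta2* of these 19 had a region in all 6 lists. A peak near a start is not a measure of expression, and the makeup of the culture was not tested.

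PBRM1, also called BAF180, is a bromodomain subunit of PBAF, 1 of several SWI/SNF chromatin remodelers, whereas BRG1 is an ATPase that can drive PBAF and other SWI/SNF forms. SWI/SNF complexes move or evict nucleosomes, and at distal sites they are commonly found at enhancers. AP-1 factors (FOS and JUN proteins) and TEAD factors (the DNA-binding partners of YAP and TAZ) are known to occupy enhancers in muscle and stromal cells. A PBRM1 signal above the BRG1 signal does not show a PBAF site, because the antibodies differ and their signals have no common scale.

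The first sequences below are shown because they had the lowest ratios among members in which every PBRM1 library exceeded every BRG1 library. Each is about 0.2 kb of GRCm38, plus strand, centred on the pooled PBRM1 summit and named by the nearest protein-coding start. Capitals in this and the other printed sequences mark matches on either strand to TGANTCA (AP-1), GGAATG (TEAD) or TGATTNAT (PBX/HOX).
Rpusd4 region, chr9:35305353-35305553: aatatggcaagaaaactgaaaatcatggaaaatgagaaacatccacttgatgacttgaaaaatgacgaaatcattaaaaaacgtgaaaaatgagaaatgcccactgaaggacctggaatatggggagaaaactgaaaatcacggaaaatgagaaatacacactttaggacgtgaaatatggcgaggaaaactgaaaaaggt
Tmem167 region, chr13:90234217-90234417: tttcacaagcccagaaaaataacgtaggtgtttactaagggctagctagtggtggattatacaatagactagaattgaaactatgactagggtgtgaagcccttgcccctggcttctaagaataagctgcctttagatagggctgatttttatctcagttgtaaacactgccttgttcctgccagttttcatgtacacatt
Negr1 region, chr3:156017941-156018141: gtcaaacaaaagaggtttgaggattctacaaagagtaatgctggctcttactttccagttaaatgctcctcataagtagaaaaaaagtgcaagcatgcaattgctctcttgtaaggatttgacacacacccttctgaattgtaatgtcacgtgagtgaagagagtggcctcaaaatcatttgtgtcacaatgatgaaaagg
Tmtc2 region, chr10:105165221-105165421: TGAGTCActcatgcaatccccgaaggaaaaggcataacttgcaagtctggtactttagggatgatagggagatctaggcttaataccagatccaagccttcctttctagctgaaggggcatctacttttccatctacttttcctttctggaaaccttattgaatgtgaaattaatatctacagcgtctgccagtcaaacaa

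The *Tmtc2* window held 1 AP-1 match at its edge, and the windows near *Negr1*, *Tmem167* and *Rpusd4* held none of the 3 motifs within the printed window. In the wider 0.5 kb window around the summit, the *Negr1* and *Tmem167* regions held AP-1 matches. The *Negr1* region also held a PBX/HOX match there, and the *Rpusd4* region held none of the 3 motifs. The *Rpusd4* region was 83.4% repeat-masked in the 0.5 kb window around its summit, and 45.9% of its 31-base words were found again at other places of the assembly.

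The next sequences belong to the members with the highest pooled PBRM1 pileup whose sequence is printed, other than the *Rpusd4* region above.
Chl1 region, chr6:103649104-103649304: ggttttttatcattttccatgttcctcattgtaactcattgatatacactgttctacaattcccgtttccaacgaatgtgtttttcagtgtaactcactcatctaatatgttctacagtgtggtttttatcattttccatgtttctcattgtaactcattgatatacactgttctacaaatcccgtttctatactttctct
Smndc1 region, chr19:53421288-53421488: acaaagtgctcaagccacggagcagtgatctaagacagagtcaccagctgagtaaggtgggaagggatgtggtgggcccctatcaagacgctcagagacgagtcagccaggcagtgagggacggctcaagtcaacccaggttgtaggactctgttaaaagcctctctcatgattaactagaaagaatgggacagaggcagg

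Neither window held a match to the 3 motifs. The *Chl1* window was the lowest in GC of all members, at 29.3%, and 27.2% of its 31-base words recurred, whereas the *Smndc1* window had 50.9% GC and no recurring word.

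The last sequences show, for TEAD, AP-1 and PBX/HOX in turn, the 2 members of highest PBRM1 pileup with a match inside the printed window.
Arhgap23 region, chr11:97428063-97428263: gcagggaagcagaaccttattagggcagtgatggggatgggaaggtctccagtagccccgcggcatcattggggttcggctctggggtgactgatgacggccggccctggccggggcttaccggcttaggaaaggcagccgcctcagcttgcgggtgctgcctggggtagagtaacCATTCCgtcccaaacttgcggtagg
Ccn5 region, chr2:163801056-163801256: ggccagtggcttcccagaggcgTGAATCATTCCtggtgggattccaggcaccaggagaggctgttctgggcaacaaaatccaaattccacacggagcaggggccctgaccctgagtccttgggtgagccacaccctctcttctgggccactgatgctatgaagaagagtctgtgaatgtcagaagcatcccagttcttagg
Tec region, chr5:72855907-72856107: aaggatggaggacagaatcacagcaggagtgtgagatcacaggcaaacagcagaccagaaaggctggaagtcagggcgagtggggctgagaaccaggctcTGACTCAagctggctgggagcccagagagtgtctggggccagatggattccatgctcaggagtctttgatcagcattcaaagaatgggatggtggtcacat
Cd93 region, chr2:148522121-148522321: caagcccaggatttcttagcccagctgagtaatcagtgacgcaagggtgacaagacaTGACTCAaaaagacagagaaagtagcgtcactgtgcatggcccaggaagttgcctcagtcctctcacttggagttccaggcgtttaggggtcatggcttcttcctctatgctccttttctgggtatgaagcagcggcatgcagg
Ankrd50 region, chr3:38277285-38277485: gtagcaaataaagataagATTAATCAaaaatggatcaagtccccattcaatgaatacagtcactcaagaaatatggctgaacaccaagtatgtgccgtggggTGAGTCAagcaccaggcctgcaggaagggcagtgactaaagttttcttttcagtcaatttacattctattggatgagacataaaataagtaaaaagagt
Arhgef28 region, chr13:97928137-97928337: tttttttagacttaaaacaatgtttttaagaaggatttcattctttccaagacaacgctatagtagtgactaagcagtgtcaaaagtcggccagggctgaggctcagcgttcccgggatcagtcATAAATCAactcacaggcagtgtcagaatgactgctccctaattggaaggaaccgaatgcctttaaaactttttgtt

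In the *Ccn5* window an AP-1 match and a TEAD match overlapped and are printed as 1 capital run. The *Ankrd50* window held an AP-1 match beside its PBX/HOX match. The *Tec* window had its AP-1 match almost on the PBRM1 summit.

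The members were not sites of unusually strong PBRM1 signal. Their median pooled PBRM1 pileup was 1.02 FPM (63 fragments), against 0.937 (58 fragments) at the other distal regions. Their median pooled BRG1 pileup was 0.885 FPM (40 fragments), against 1.22 (55 fragments). The members therefore stood apart from the other distal regions more in BRG1 than in PBRM1, which is a description of values that chose them. The median ratio of the members was 0.901, with quartiles of 0.822 and 0.958 and a lowest value of 0.506, so most lay close to the limit of 1.

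**Figure D1:**
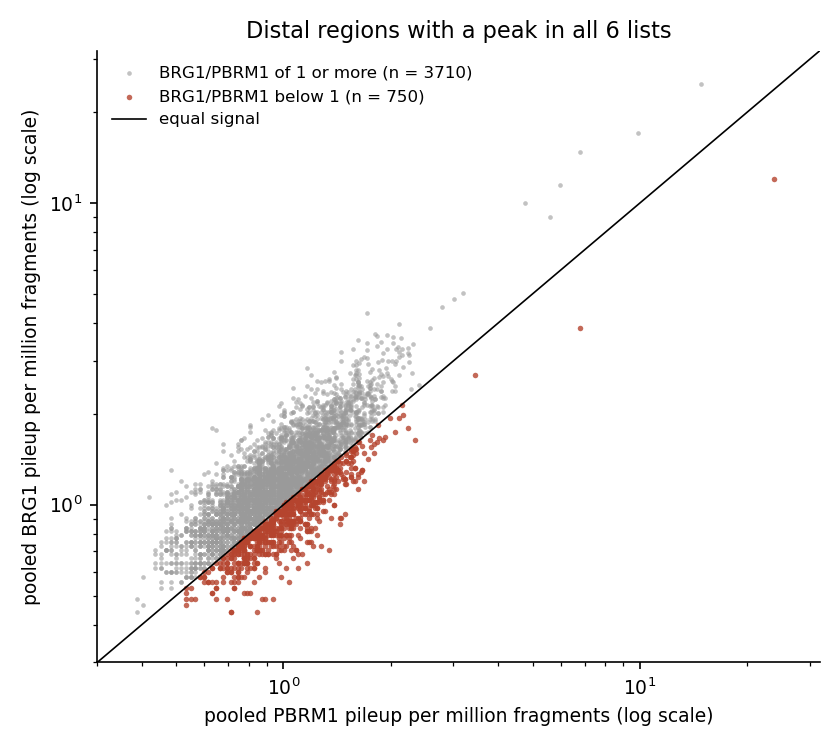
Pooled PBRM1 pileup in FPM (x axis, log scale) against pooled BRG1 pileup in FPM (y axis, log scale) for the 4460 distal regions with a peak in all 6 lists, with the 750 members in red and the line of equal signal in black. Most members lie just under the line near 1 FPM, and a single member reaches 23.8 for PBRM1.

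The limit itself passed through a continuous distribution. The 3 members just inside it, nearest to *Ccdc172*, *Zfp36l2* and *Sparc*, had ratios of 0.9997, 0.9995 and 0.9992, and the 3 distal regions just outside it, nearest to *Myh13*, *Rmi1* and *Nsmce2*, had ratios of 1.0006, 1.0006 and 1.0006. Near *Sparc*, which encodes a collagen-binding matrix protein, the 3 PBRM1 libraries gave 1.41, 0.993 and 1.38 FPM and the 3 BRG1 libraries 1.2, 0.98 and 1.4, so the antibodies overlapped.

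Single libraries separated the antibodies at few members. The median pileup in FPM over members was 1.11, 1.1 and 1 in PBRM1 replicates 1, 2 and 3 (mean 1.07 ± 0.062 SD, n = 3) and 0.944, 1.05 and 0.931 in the BRG1 replicates (mean 0.975 ± 0.0654 SD, n = 3). The medians of PBRM1 replicate 3 and BRG1 replicate 2 were in the reverse order. Between these libraries the members' median BRG1/PBRM1 ratio was 1.02, with 47.2% of members below 1, so most members had the higher signal in BRG1, whereas in the other 8 pairs of libraries the median was 0.856 to 0.948. At the other distal regions the same medians were 1.06, 1.05 and 0.959 for PBRM1 and 1.26, 1.33 and 1.26 for BRG1. These medians did not overlap, but a pooled ratio of the same fragments chose these regions too, so nothing is read from their order. Region by region, all 3 BRG1 libraries lay above all 3 PBRM1 libraries at 1374 of these 3710. All 3 PBRM1 libraries lay above all 3 BRG1 libraries at 84 of the 750 members (11.2%, Wilson 95% interval 9.14 to 13.7%), against 1.91% of all distal regions, a contrast that the choice of members used and from which nothing is read. The reverse order was found at 1 member, against 30.8% of all distal regions. Without PBRM1 replicate 3 the share of members with separated antibodies was 24.4%, without BRG1 replicate 2 it was 24.9%, without BRG1 replicate 1 it was 17.5%, and without any other library it was 16 to 16.7%; fewer libraries make this a weaker demand.

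Counting error alone was wide for most members. The exact 95% interval of the pooled ratio, from the 2 fragment counts at the summits, ended below 1 at 30 of the 750 members, against 0.673% of all distal regions. The 30 were the only such distal regions, since an interval around a ratio of 1 or more cannot end below 1. Nothing is read from that contrast, and these intervals cover counting error only. The median summit held 20 to 24 fragments in a PBRM1 library and 14 to 15 in a BRG1 library over the members, which limits what a single library can show.

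The ratio was also read in libraries left out of a new choice by ratio, although their peaks had helped to define the distal regions. Regions were chosen again by a ratio below 1 in the mean of 2 PBRM1 and 2 BRG1 libraries, and the ratio of the remaining pair was then read, for each of the 9 pairs that can be left out. The chosen sets held 721 to 1217 regions and were not the 750 members themselves. Their median ratio in the pair left out was 0.978 to 1.23, against 1.14 to 1.38 at the rest of the distal regions, and was lower in 9 of 9 cases. In the pair left out, 25.2 to 54.2% of the chosen regions lay below 1, against 10.6 to 29.5% of the rest. The 9 cases share libraries, all the regions hold a peak in the libraries left out, and no p was computed. Any trait common to the libraries of an antibody carries over to the pair left out. The 9 cases are therefore a description and not 9 replicates, and nothing about a cause is read from them. In 4 of the 9 cases the median of the chosen regions was below 1 in the pair left out.

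A ratio that takes in the local background differed from the pileup ratio. The authors' fold enrichment is the pileup over the local background after 1 fragment is added to both, and the background worked back from it had a median at members of 0.173 FPM for PBRM1 and 0.145 for BRG1, against 0.186 and 0.197 at the other distal regions. By fold enrichment the members' median was 5.35 for PBRM1 and 5.32 for BRG1, and their median BRG1/PBRM1 ratio was 0.981. The fold enrichment ratio was below 1 at 401 of the 750 members (53.5%), against 712 of the 3710 other distal regions (19.2%). For the remaining 349 members the higher PBRM1 signal was present in pileup and not in pileup over local background. Without the added fragment the ratio was below 1 at 347 members.

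The 8 members with the lowest ratio among the 84 are given in full for the leading ones. At the *Rpusd4* region (chr9:35305229-35305589, in an intron of *Gm33838*) the PBRM1 libraries gave 22.4, 22.5 and 26 FPM and the BRG1 libraries 13.3, 10.3 and 12.6, with a pooled ratio of 0.506 (95% counting interval 0.458 to 0.559). This was the strongest and the lowest-ratio member, with a pileup apart from all the others, and it is the repeat-rich window printed above. Its ratio by fold enrichment was 0.758.

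At the region nearest *Tmem167* (chr13:90233480-90234685, intergenic) PBRM1 was 1.21, 1.05 and 0.875 FPM and BRG1 0.503, 0.49 and 0.599, for a ratio of 0.519 (0.303 to 0.862), but the fold enrichment ratio was 0.998. This window was 63.5% repeat-masked. The region nearest *Negr1*, a neuronal adhesion gene (chr3:156017554-156018366, intergenic, 543834 bp from its start), gave 1.01, 0.938 and 0.75 for PBRM1 and 0.503, 0.63 and 0.466 for BRG1. Its ratio was 0.527 (0.298 to 0.897), and 0.709 by fold enrichment. No base of its window was repeat-masked.

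The region nearest *Tmtc2* (chr10:105165174-105165880, intergenic) gave 1.21, 1.1 and 0.834 for PBRM1 and 0.44, 0.63 and 0.599 for BRG1, a ratio of 0.535 (0.323 to 0.861). It had the lowest ratio by fold enrichment of the 8, at 0.585. At the region nearest *Inhba*, which encodes the activin A subunit (chr13:16175832-16176687, intergenic), PBRM1 was 0.808, 0.938 and 0.917 and BRG1 0.692, 0.7 and 0.399, a ratio of 0.548. The gap between the lowest PBRM1 and the highest BRG1 library was small here, unlike at the *Tmtc2* region.

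The last 3 of the 8 were nearest to *Tm4sf1*, *Klf6* and *Tnc*, with ratios of 0.551, 0.558 and 0.564. *Klf6* encodes a zinc finger transcription factor and *Tnc* the matrix glycoprotein tenascin C, and both members lay far from the gene, at 612310.5 and 277644 bp. At the *Tnc* member PBRM1 was 1.36, 1.32 and 1.08 and BRG1 0.755, 0.7 and 0.599, without overlap, yet the fold enrichment ratio was 1.14, above 1. Of the 84 members with separated libraries, 54 also had a fold enrichment ratio below 1, beside 401 of all 750 members (53.5%) and 1113 of all 4460 distal regions. Both measures hold the contrast that chose the members, so nothing is read from this count.

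**Figure D2:**
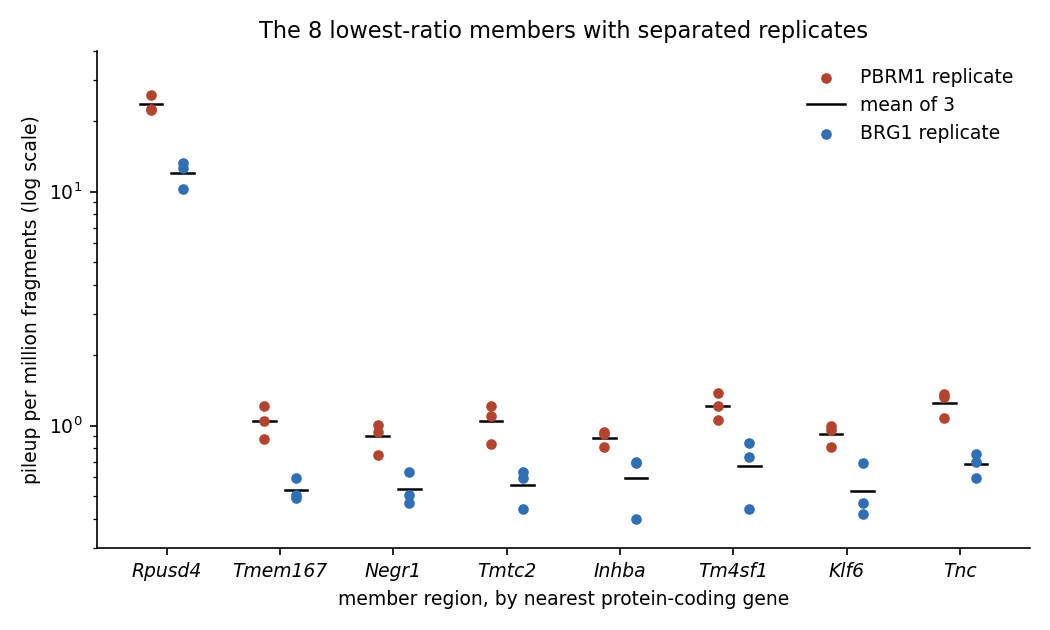
Pileup in FPM (y axis, log scale) in each PBRM1 replicate (red) and BRG1 replicate (blue) at the 8 lowest-ratio members in which the antibodies did not overlap, with the mean of 3 as a bar. The region nearest *Rpusd4* stands above 10 FPM, and the other 7 lie between 0.399 and 1.38.

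The members with the highest PBRM1 pileup were richer in repeats than most. The first 4, nearest to *Rpusd4* (23.8 FPM), *Chl1* (6.78), *Kctd16* (3.44) and *Vmn1r238* (2.34), had 83.4%, 35.9%, 32.5% and 44.5% of the window repeat-masked, and 45.9%, 27.2%, 19.5% and 19.7% of their 31-base words recurred. At the *Chl1* member (chr6:103649054-103649288, an intron of this cell adhesion gene) PBRM1 was 6.16, 5.63 and 8.42 and BRG1 4.28, 2.94 and 4.39, a ratio of 0.567 (0.473 to 0.678). The antibodies did not overlap there. Whether fragments from other copies of the recurring words added to the pileups of these 4 members was not tested. The fold enrichment ratio was 0.826 at *Chl1*, 1.08 at *Kctd16* and 0.777 at *Vmn1r238*.

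The next 4 in PBRM1 pileup, nearest to *Smndc1* (2.23), *Ctc1* (2.16), *Tec* (2.15) and *Cd93* (2.12), had between 0 and 12.6% repeat-masked bases and GC contents of 50.3 to 60.9%. Their ratios were 0.804, 0.92, 0.999 and 0.92, nearer to 1 than those of the repeat-rich sites. At the *Smndc1* member the libraries gave 2.63, 2.54 and 1.75 for PBRM1 and 1.64, 1.89 and 2.06 for BRG1, which overlapped. Over all members, repeats were not more common: 9 of 750 windows (1.2%) were 50% or more repeat-masked, against 48 of 3710 (1.29%), and the medians were 8.58% and 7.98%. Only 1 member and 4 other distal regions had 50% or more recurring words.

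By position the members lay farther from genes. Their median distance to the nearest transcript start was 17839 bp (95% interval of the median 16220.5 to 19554), against 13883 bp (13302 to 14412) at the other distal regions, and the members' median was larger on 14 of 19 chromosomes. Of the members, 145 (19.3%, Wilson interval 16.7 to 22.3%) were over 50 kb from any start, against 11.5% (10.5 to 12.5%). The nearest protein-coding start was a median of 38293 bp away, against 25859.8 bp, and the 1 Mb around a member held a median of 6 protein-coding starts, against 9. When the members were chosen by fold enrichment the distance difference turned, from 3956 bp to -4924 bp. The 401 members below 1 by both measures had a median distance of 14472 bp. The difference from all remaining distal regions, which hold the other 349 members, was 64.5 bp. The greater distance from genes thus held for the pileup ratio and not for the fold enrichment ratio.

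Introns held 373 members (49.7%), intergenic sequence 367 (48.9%) and exons 10 (1.33%, 0.726 to 2.44%). The other distal regions were in introns at 46.6%, intergenic at 49.5% and in exons at 3.94% (3.36 to 4.61%), so only for exons were the counting intervals apart. The members made up 9.95% of the distal regions on chromosome 17 and 23% on chromosome 3, the lowest and highest shares. Region length was alike, with medians of 809.5 and 802 bp. The pooled PBRM1 and BRG1 summits were a median of 68 bp apart at members and 40 bp apart at the others.

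The members were poorer in G and C. The median GC content of the 0.5 kb window was 44.9% (44.5 to 45.3%), against 48.9% (48.5 to 49.1%) at the other distal regions and 52.7% where the ratio was 1.5 or more, and it was lower in members on 19 of 19 chromosomes. The median CpG ratio of observed to expected was 0.195 against 0.247. In windows 2 kb away GC was 42.3% near members and 45% near the others, so the surroundings differed in the same direction. Across the 4460 distal regions the rank correlation of GC with the pileup ratio was 0.38, a description over regions that share 6 libraries. GC correlated with the pileup in each BRG1 library at 0.35 to 0.45 and in each PBRM1 library at 0.19 to 0.21.

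The direction of the GC difference depended on the measure. With the ratio of fold enrichments the rank correlation with GC was -0.31, and regions chosen by it had a GC content 3.39 percentage points higher than the remaining distal regions, in place of -3.99. The 401 members below 1 by both measures had a median GC of 46.3%, 2 points lower than the remaining distal regions (a difference of -2). The 349 members below 1 by pileup alone had a median of 43.7%. The part of GC content in the choice of members was not tested.

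**Figure D3:**
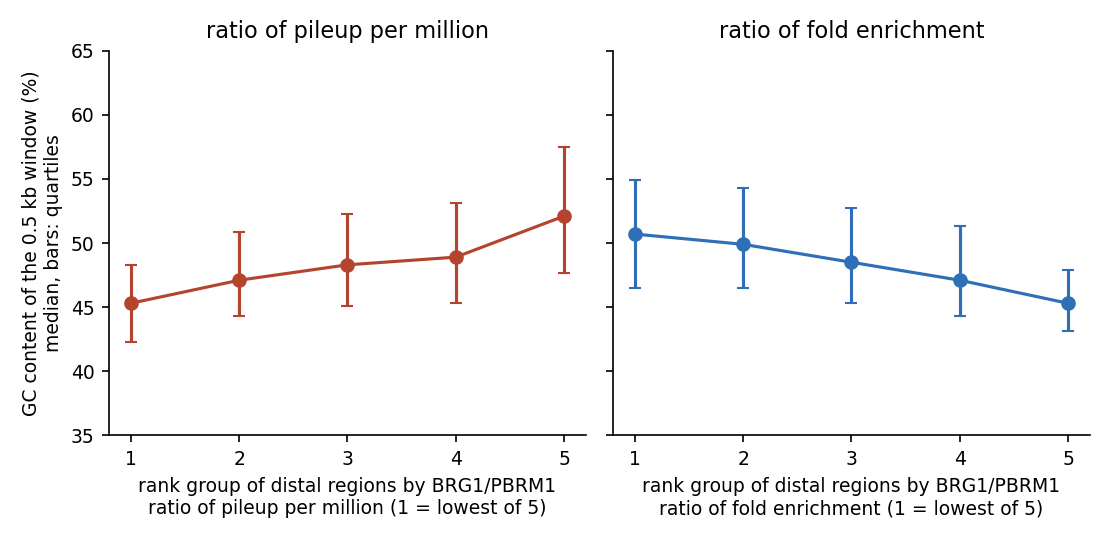
Median GC content of 0.5 kb windows (y axis, %, bars from the lower to the upper quartile) in 5 rank groups of the 4460 distal regions by the BRG1/PBRM1 ratio of pileup in FPM (left) or of fold enrichment (right). GC rises from 45.3% to 52.1% across the left panel and falls from 50.7% to 45.3% across the right panel.

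Among 24 sequence motifs searched on both strands in the 0.5 kb window, 12 were more frequent and 12 less frequent in members. TEAD (GGAATG) had the largest excess. It matched 379 members (50.5%, Wilson interval 47 to 54.1%) and 39.9% (38.4 to 41.5%) of the other distal regions, with a higher share in members on 17 of 19 chromosomes. Windows 2 kb away matched at 24.8% and 25.2%. The excess of 10.6 percentage points was 4.99 in a 0.2 kb window, where fewer matches can fall, and 5.96 in the 0.5 kb window at the BRG1 summit. Of all 4460 distal regions 41.7% held the motif, and of promoter regions in all 6 lists 20%.

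AP-1 (TGANTCA) was the most frequent of the 3 leading motifs, in 451 members (60.1%, 56.6 to 63.6%) and 54.1% (52.5 to 55.7%) of the other distal regions, with flanks at 15.4% and 16.1%. Its excess of 6.04 points was found on 15 of 19 chromosomes, and was 6.72 in the 0.2 kb window and 1.87 at the BRG1 summit. All distal regions held it at 55.1% and promoter regions at 11.5%. AP-1 and TEAD matches occurred together in 214 members (28.5%, 25.4 to 31.9%), against 21% (19.7 to 22.4%) of the others, and neither was found in 134 members (17.9%, 15.3 to 20.8%), against 27% (25.6 to 28.5%). PBX/HOX (TGATTNAT), a composite of 2 homeodomain factors, was in 112 members (14.9%, 12.6 to 17.7%) and 10.2% (9.31 to 11.3%) of the others, on 16 chromosomes in the same direction, and in 11% of all distal regions. Its flanks differed in the same direction, at 9.47% and 8.09%, and its excess of 4.69 points was 1.41 in the 0.2 kb window.

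SP/KLF (GGGCGG), a GC box typical of promoters, was the most depleted. It was in 51 members (6.8%, 5.21 to 8.83%), 19.1% (17.9 to 20.4%) of the other distal regions, 17% of all distal regions and 75.3% of promoter regions, and it was less frequent in members on 18 of 19 chromosomes. Its flanks, at 4.67% and 6.62%, differed in the same direction, and its difference of -12.3 points was -6.65 in the 0.2 kb window. The CTCF motif, bound by the insulator protein, matched 0 of 750 members, which allows a share of up to 0.4% by the limit of 3 counts and 0.51% by the Wilson interval, and 2.05% (1.64 to 2.56%) of the others. Its difference of -2.05 points was -0.836 in the 0.2 kb window and, with members chosen without PBRM1 replicate 1, -1.31. Among the alternatives tried, it stayed within the counting error of the members' share in 3, moved beyond it in 11 and turned in 2. The counting intervals of members and other distal regions were apart for 7 of the 24 motifs: TEAD, AP-1, PBX/HOX, SOX, CTCF, the E-box CAGCTG and SP/KLF. The E-box was in 29.3% and 34.9%, and its difference of -5.52 points was -2.21 without PBRM1 replicate 3 and -3.52 without BRG1 replicate 1. Steroid receptor matches, for receptors of progesterone and other steroids, were in 15.6% and 15.7%, and the SRF CArG box of muscle genes in 4.27% (3.04 to 5.96%) and 3.85% (3.28 to 4.52%).

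**Figure D4:**
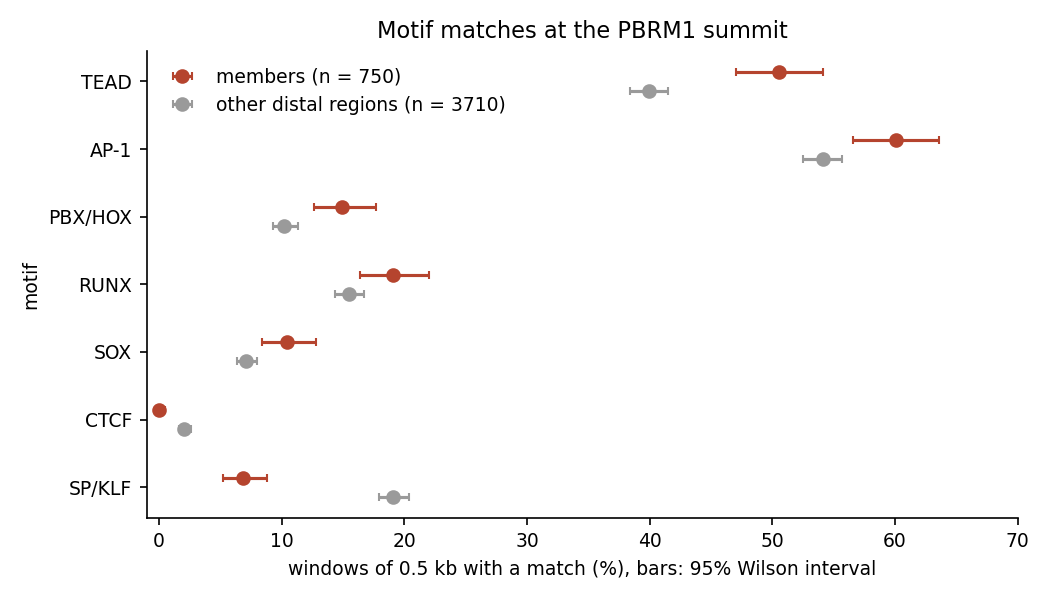
Share of 0.5 kb windows at the pooled PBRM1 summit with a match (x axis, %, bars are 95% Wilson intervals) for 7 motifs in the 750 members (red) and the 3710 other distal regions (grey). TEAD is at 50.5% and 39.9%, and SP/KLF at 6.8% and 19.1%.

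For 20 of the 24 motifs the difference was smaller between windows of like GC content, and for 4 it changed sign. It was larger for the steroid receptor (-1.26 points, from -0.114), GATA (-0.79, from 0.357), YY1 (-0.408, from 0.00539) and NFI (0.318, from 0.0992). Weighting the other distal regions to the members' numbers in 4 GC classes (under 40, 40 to 45, 45 to 50 and 50% or more) left a difference of 9.51 percentage points for TEAD, from 10.6. It left 2.2 for AP-1, from 6.04, and 2.1 for PBX/HOX, from 4.69, and -3.91 for SP/KLF, from -12.3. It left 1.36 for SOX, from 3.28, -1.21 for CTCF, from -2.05, and -0.593 for the E-box CAGCTG, from -5.52, so that little of the E-box difference remained. AP-1 was more frequent in members in 3 of the 4 classes, at 59.2% against 56.5%, 65.7% against 60.4% and 50.4% against 45.1%, and less frequent in the class of 45 to 50% GC, at 58.3% against 61.2%. TEAD was more frequent in members in all 4 classes, at 50% against 32.9%, 52% against 42.3%, 54.4% against 44.4% and, at 50% GC or more, 38.3% against 35.5%. When regions were chosen by fold enrichment, the TEAD difference was -1.22, PBX/HOX -2.37 and SP/KLF 4.71 points, all turned, and AP-1 was 1.27. At the 401 members below 1 by both measures, TEAD was 8.16, AP-1 6.3, PBX/HOX 1.85 and SP/KLF -9.13 points from the remaining distal regions.

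The matches gathered around the summit. In bins of 50 bp, AP-1 matches were found at up to 10.5% of members, 150 to 200 bp from the PBRM1 summit, and at 2.53% of members in the bin from -1000 to -950 bp. Within 50 bp of the summit an AP-1 match was centred in 110 members (14.7%, 12.3 to 17.4%) and 9.92% (9 to 10.9%) of the other distal regions, and a TEAD match in 87 members (11.6%, 9.5 to 14.1%) and 8.36% (7.51 to 9.29%). At the other regions AP-1 matches dipped at the summit, to 4.91% in the bin just before it from 9.81% at 150 to 200 bp before it, and to 5.26% in the bin just after it from 9.57% at 150 to 200 bp after it. In members the bins before the summit were level, at 8.67% and 8.67%, and those after it fell to 7.07% from 10.5%.

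**Figure D5:**
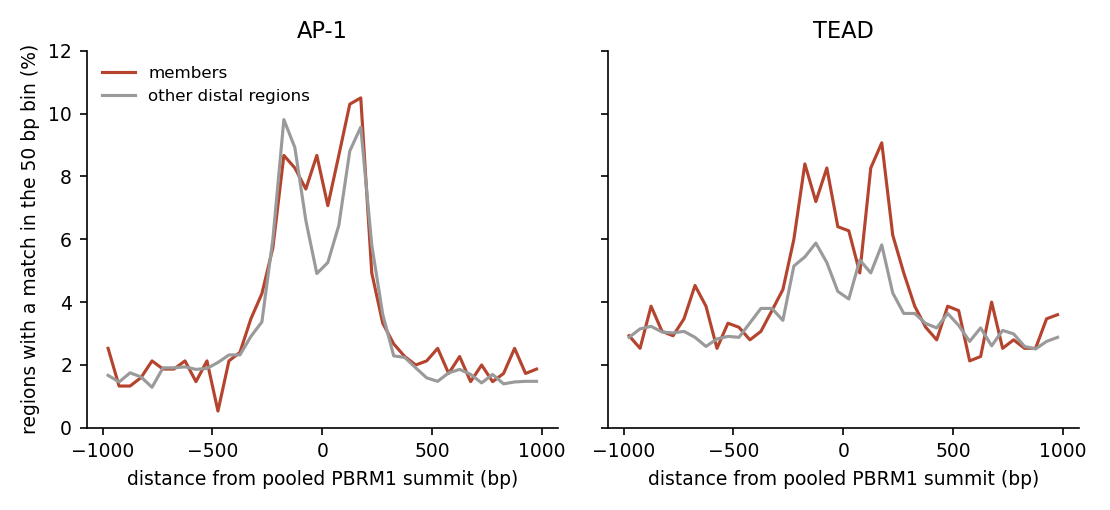
Share of regions with an AP-1 (left) or TEAD (right) match centred in each 50 bp bin (y axis, %) by distance from the pooled PBRM1 summit (x axis, bp) in the 750 members (red) and the 3710 other distal regions (grey). The AP-1 line of the other regions dips to 4.91% just before the summit, and that of the members to 7.07% just after it.

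Among the members, those with and without these motifs had like levels of signal. Members with an AP-1 match had a median PBRM1 pileup of 1.03 FPM and a median ratio of 0.901, members with a TEAD match 1.03 and 0.888, members with both 1.07 and 0.888, and members with neither 1 and 0.916. These medians lay within the quartiles of each group. The antibodies did not overlap at 31 of the 214 members with both motifs (14.5%) and at 15 of the 134 with neither (11.2%). As given above, the share was 11.2% over all 750 members and 1.91% over all distal regions.

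The nearest protein-coding genes were many. The 750 members were nearest to 676 genes, 615 of them with 1 member, 49 with 2 and 12 with 3 or more. The nearest start names a place and not a target. *Fam198b* had 4 members among its 6 distal regions, 50382 to 173927 bp from its start, with ratios of 0.865 to 0.935. All 3 distal regions nearest *Has2*, the hyaluronan synthase, were members, with ratios of 0.782 to 0.924, as were all 3 nearest *Pdgfc*, a platelet-derived growth factor (0.849 to 0.906), all 3 nearest *Pde4b*, a cyclic AMP phosphodiesterase (0.811 to 0.973), and all 3 nearest *Adamtsl3*, a secreted matrix protein (0.784 to 0.996). *Lpar1*, a lysophosphatidic acid receptor, and *Celf2*, an RNA-binding splicing regulator, each had 3 members of 4 distal regions, with ratios of 0.772 to 0.99 and 0.77 to 0.934.

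*Kcna4*, a voltage-gated potassium channel gene, also had 3 members of 4 distal regions, 27742 to 741410 bp from its start, with ratios of 0.662 to 0.952. At 2 of them the PBRM1 and BRG1 libraries did not overlap, beside 11.2% of all members and 1.91% of all distal regions. These counts are too small to set the gene apart. At none of the members nearest the other 7 genes named here were the libraries apart. The 12 genes were ranked by number of members and then by name, and the first 8 are given. *Rbms1*, which ranked after them, also had 2 members with separated libraries among its 3.

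The extracellular matrix and collagen list, the longest of the 9 and the one with the largest share of all distal regions, had 10 members. They were nearest to 10 of its 28 genes, 1 member each (*Ccn1*, *Col5a2*, *Col6a3*, *Fn1*, *Lama4*, *Lamc1*, *Sparc*, *Thbs1*, *Thbs2* and *Tnc*), which is 1.33% of members against 0.889% of the other distal regions and 0.964% of all of them. The strongest of these by PBRM1 pileup were nearest to *Col6a3*, a chain of collagen VI (1.23 FPM, ratio 0.955), *Ccn1*, a matricellular protein (1.23, ratio 0.973), and *Lama4*, a laminin chain (1.21, ratio 0.767). At *Lama4* the PBRM1 libraries gave 1.41, 1.49 and 0.875 and the BRG1 libraries 1.57, 0.77 and 0.665, so 1 BRG1 library exceeded all PBRM1 libraries, and its fold enrichment ratio was 1.13.

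Prostaglandin genes had 3 members among 22 genes (0.4% of members, 0.27% of the others and 0.291% of all distal regions). The member nearest *Ptgs2*, the inducible cyclooxygenase, lay in *Ptgs2os* at chr1:150088957-150089552, 10776 bp from the *Ptgs2* start, with PBRM1 at 1.36, 1.1 and 0.917 and BRG1 at 0.692, 0.98 and 0.665. Its ratio was 0.846 (0.535 to 1.32), and 1.04 by fold enrichment, with the libraries overlapping. The member nearest *Hpgd*, which encodes the enzyme that inactivates prostaglandins, lay 9483 bp away, with PBRM1 at 0.758, 0.828 and 0.834 and BRG1 at 0.566, 0.7 and 0.732 and a ratio of 0.804 (0.48 to 1.32). Here every PBRM1 library exceeded every BRG1 library, but the fold enrichment ratio was 1.18. The member nearest *Ptger4*, a prostaglandin E receptor, was 295416 bp from it and had a ratio of 0.96, and 1.35 by fold enrichment.

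TGF-beta signaling had 3 members (0.4% against 0.728% of the others and 0.673% of all distal regions), nearest to the receptor gene *Tgfbr2* (ratio 0.826), the inhibitory *Smad6* (0.994) and the latent TGF-beta binding protein gene *Ltbp1* (0.944). At the *Tgfbr2* member PBRM1 was 1.52, 2.04 and 1.83 and BRG1 1.64, 2.1 and 1.46, which overlapped. AP-1 and immediate-early factors had 4 members (0.533% against 0.782% and 0.74%), nearest to *Klf4*, *Klf6* and *Myc*. The strongest were nearest to *Klf4* (1.86 FPM, ratio 0.893), *Klf6* (1.66, ratio 0.784) and *Myc* (1.62, ratio 0.767), the last inside *Pvt1*. Their fold enrichment ratios were 1.03, 0.919 and 1.01, and they lay 581258, 328769 and 299754 bp from the starts of these genes.

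Lists tied to muscle and to the reproductive tract had 0 to 2 members each, counts too small to set apart from their shares of all distal regions. Smooth muscle contractile genes had 1 member, nearest to *Cald1*, the actin-binding caldesmon (0.133%, and 0.157% of all distal regions), with a ratio of 0.905 and a fold enrichment ratio of 1.12. SRF and myocardin factors had 1, in an intron of *Mrtfb* (0.133%, and 0.314% of all distal regions), with a ratio of 0.99. Its fold enrichment ratio was 1.21. Reproductive tract mesenchyme factors had 2 (0.267%, and 0.471% of all distal regions), both nearest to *Nr2f2*, an orphan nuclear receptor gene. They lay 318051 and 338626 bp from its start, with ratios of 0.99 and 0.871 and fold enrichment ratios of 1.46 and 1.3. SWI/SNF subunits had 1, in an intron of *Arid1b* (0.133%, and 0.135% of all distal regions), with a ratio of 0.919. The fold enrichment ratio there was 0.845. Oviduct epithelium genes had 0 of 750, which allows a share of up to 0.4%, beside 0.0897% of all distal regions. No test was made between lists.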

How the data were processed

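ChIC-Seq peak lists of 3 PBRM1 and 3 BRG1 libraries from WT mouse oviductal smooth muscle cells were used, with 1 pooled list per antibody, whose fragment totals equal the sums of the replicates. Per the labels, the submitters' processing notes name cutadapt, Bowtie2, MACS2 and GRCm38.p5. Per the file headers, the caller was MACS 2.2.7.1 on fragment files, with a q cutoff of 0.05, a local background over 10 kb and no control library. Whether duplicates were removed is not given in the sources used here. Per the file headers, the deposited pileup is the coverage signal at a summit, unscaled, deposited fold enrichments are ratios of pileup to local background with 1 fragment added to both, and −log10 q was used by an alternative only. Calling without a control keeps sites that the nuclease cuts whatever the antibody.

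Pileups were divided by the depth of each list and are given per 1000000 fragments (FPM). Genes and starts were those of GENCODE vM21, and sequence was that of GRCm38.p6, beyond whose chromosome ends 0 peaks reached. GC content, repeat masking, motifs and 31-base words found elsewhere in the assembly were read in a 0.5 kb window at the pooled PBRM1 summit. Because the members were chosen by the contrast of the antibodies, and regions are not replicates, no test was run. Values are given with SDs over 3 libraries, exact or Wilson 95% intervals (counting error only) or order-statistic intervals of medians, which treat regions as independent. The 6 lists held 0 identical pairs. The members, motifs and gene lists were chosen with earlier results of these data known.

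Named were the 8 lowest-ratio members with separated libraries, the 8 with the highest PBRM1 pileup, 3 on either side of the limit, up to 3 per gene list, the 3 most enriched motifs and the most depleted one, and up to 8 genes with 3 or more members. Other motifs and *Rbms1* were named after their values were seen. Python 3.11.15, numpy 2.4.6, pandas 2.3.3, scipy 1.17.1 and matplotlib 3.10.9 were used, and the steps were tested on simulated data. Other ratios, scalings, thresholds, windows and left-out libraries were tried as alternatives.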

Additional observations from a re-analysis of the deposited data

Results flagged for a closer look

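Chromosome X was left out by the rule. Of 26 distal regions on X with a peak in all 6 lists, 5 had a BRG1/PBRM1 ratio below 1 (19.2%, Wilson interval 8.51 to 37.9%). The share on chromosomes 1 to 19, 16.8%, lay inside that interval, so X was not set apart. A count of 0 would have allowed up to 11.5%. The median GC content of these 5 was 45.7%, against 55.7% for the others on X. Chromosome X was flagged because the comparisons above do not use it, not because its share was unusual. Groups of 3 libraries are too small for a search for single libraries far from the rest.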

How the results depend on the processing

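The number of members, 750, depended on scale. It was 3813 when signals were scaled to a median promoter ratio of 1, 143 below a ratio of 0.8, 164 with replicate peaks of −log10 q of 5 or more, and 401 below 1 by both pileup and fold enrichment, and stayed within 1.5 times under the other alternatives (678 to 1012 with a library left out; 1113 by fold enrichment, 401 of them members, and 1016 without the added fragment). The share of members with separated libraries, 11.2%, was 87.3% under promoter scaling and 16 to 24.9% with a library left out. The GC difference of -3.99 points was -3.39 at the BRG1 summit, -5.19 under promoter scaling, -5.59 below 0.8, -2 below 1 by both measures and -3.59 to -4.19 with a library left out. With members chosen by fold enrichment it turned to 3.39 points, and to 3.99 without the fragment the caller adds. The same choice, with and without that fragment, turned the motif differences to -1.22 and -2.13 (TEAD), -2.37 and -1.92 (PBX/HOX), -2.56 and -3.3 (SOX), 0.962 and 0.98 (CTCF), 3.16 and 3.99 (E-box CAGCTG) and 4.71 and 5.97 points (SP/KLF), and the distance difference to -4924 and -5356 bp; SOX was also turned, to -0.479 points, below 1 by both measures. The cause was not tested. AP-1 kept its direction under every alternative tried, at 0.645 to 15.8 points, although within the class of 45 to 50% GC its share was 58.3% in members and 61.2% in the others. Directions were counted as turned only where the intervals of members and other regions were apart. The weighting by GC class, the use of both measures, the removal of the added fragment, the libraries left out of the choice and the difference in distance were added after seeing the data. No paired analysis was possible because no result comes from a test. The members' median ratio between libraries of the same number was 0.856, 0.931 and 0.948. Depth limits single sites: a median member summit held 14 to 24 fragments per library.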
